A study of Drosophila melanogaster with 3 samples.

Results

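Translation initiation factor genes were taken as the protein-coding genes of the fly annotation whose symbol begins with eIF and a digit, which gave 44 of 13945 protein-coding genes. Their peaks came from chromatin immunoprecipitation sequencing (ChIP-seq) of fd64A, a forkhead transcription factor that the annotation lists as FoxL1, fused at its C terminus to green fluorescent protein. The only group was whole Drosophila melanogaster embryos of the fd64A-GFP strain, males and females together, aged 8 to 14 hours, in 3 biological replicates from 1 donor line that stably carries the transgene. There was no second genotype, treatment or time, so the initiation factor genes are set against all protein-coding genes, and the replicates give the spread. The labels' free text names each sample as an input, but its antibody field, its assay title and its own listed control are those of an immunoprecipitation. The age field gives no usable number, so the hours come from the source name.

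Initiation factors bring the small ribosomal subunit, the initiator tRNA and the mRNA together and then let the large subunit join. eIF2 carries the initiator tRNA and eIF2B recharges it with GTP, eIF3 is a scaffold of many subunits on the small subunit, eIF4E, eIF4G and eIF4A form the complex that binds and unwinds the capped 5′ end, and eIF1, eIF1A, eIF5, eIF5B and eIF6 act in start codon choice and subunit joining. Most are needed in every growing cell, while some fly paralogues of eIF4E and eIF4G are known for roles in the male germ line. The gene for eIF5A is named eEF5 in the annotation and was counted among the elongation factors.

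The peak strength given here is the authors' own signal per peak, which is comparable only within 1 list, so ranks within each list are given beside it. The authors' final list of 2919 peaks is named for a limit on the irreproducible discovery rate (IDR), a measure of how well replicates rank the same peak. All 14 of its peaks described below had the same rank in the pooled list. Its weakest peak had a signal of 190.0, and so had the pooled peak of rank 2920, just outside it. A place in the list thus went by pooled signal and does not show that each replicate ranked that peak high. Each replicate and the pool of the 3 had a relaxed list of 30000 peaks that includes background, and the leading peaks of a replicate are its 2919 strongest. The relaxed lists of replicates 1, 2 and 3 had 4964, 3017 and 1598 peaks at q under 0.05, and read depth is unknown. A gene carried a peak where the summit lay between 2000 bp upstream of its most upstream transcription start site (TSS) and its end. Positions are on dm6.

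Of the 44 genes, 11 carried an IDR summit: eIF1, eIF5B and eIF6, the eIF2B genes eIF2Bbeta and eIF2Bgamma, the eIF3 genes eIF3a, eIF3d1 and eIF3h, and eIF4A, eIF4EHP and eIF4G2. That is 25.0% (95% Wilson interval 14.6 to 39.4, counting error only), against 16.9% of all protein-coding genes, a value inside the interval. By role, 3 of 5 genes of start codon choice and subunit joining carried one. None of the 5 genes of eIF2 and the alternative tRNA carriers did. An IDR summit was also carried by 2 of 5 eIF2B genes, 3 of 16 eIF3 genes and 3 of 13 eIF4 genes. No test of these shares was made, since the design holds 1 group of samples.

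The 14 summits lay in crowded stretches of the genome. Of these summits, 13 also fell in the window of another protein-coding gene (92.9%), against 30.5% of the 2558 IDR summits that lie in any gene window. Within 500 bp of a TSS of any gene lay 12 of the 14 (85.7%), against 46.3% of those 2558. Another gene's TSS was the nearest protein-coding one for 7 of the 14. When a summit was counted only for the gene or genes with the nearest TSS, the initiation factor genes with a peak were eIF3a, eIF3h, eIF4A, eIF4G2, eIF5B and eIF6. These are 6 of 44 (13.6%, Wilson interval 6.4 to 26.7), against 11.9% of all protein-coding genes. An IDR summit within 500 bp of one of its own TSSs was found for 7 genes (15.9%, Wilson interval 7.93 to 29.4), against 9.34% of all protein-coding genes. Those were the same as the 6 above without eIF4G2, and with eIF1 and eIF4EHP. An opposite-strand protein-coding TSS lay within 500 bp of the most upstream TSS in 18 of the 44 genes (40.9%), against 27.3% of all genes. Of those 18 genes 5 carried an IDR summit, against 20.8% of the 3804 such genes in all, and of the other 26 genes 6 did, against 15.5% of the 10141 others.

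**Figure D1:**
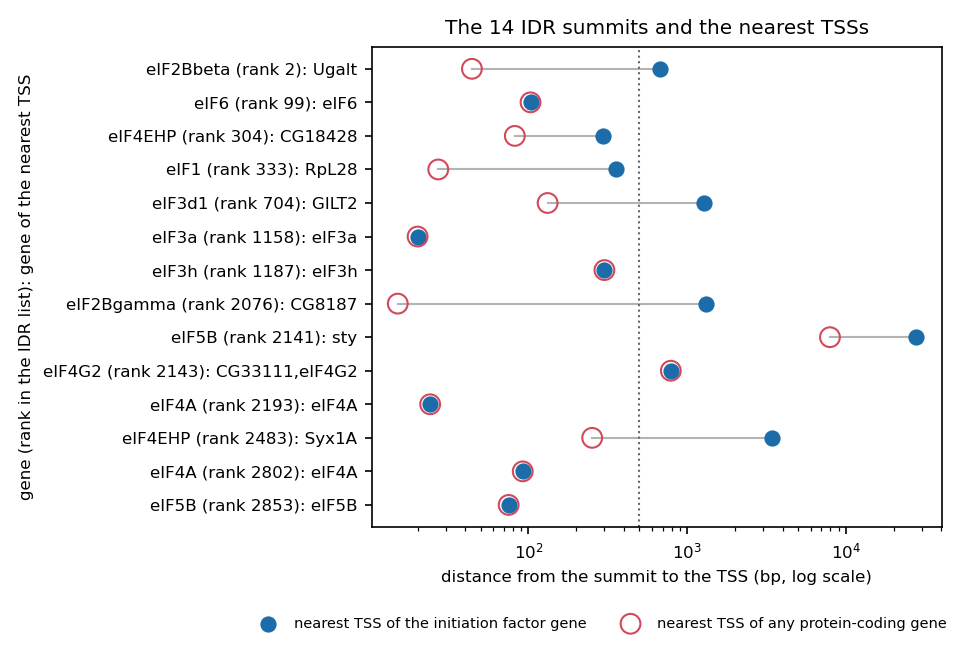
Distance in bp (log scale) from each of the 14 IDR summits to the nearest TSS of the initiation factor gene (filled points) and to the nearest TSS of any protein-coding gene (open circles), with the dotted line at 500 bp. The open circle stands left of the filled point for 7 of the 14 summits, led by the peak of rank 2 between Ugalt and eIF2Bbeta.

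The sequences under these summits are shown to place the words that were searched for. They were read from the release 6 assembly on the strand of the initiation factor gene, within 50 bp of the summit, and shortened where an annotated untranslated region begins. Capitals mark the forkhead words RTAAAYA and AYAAAYA and the word TATCGAT, the core of the site of the promoter factor DREF, on either strand. The first 6 are the strongest peaks apart from that of eIF6, eIF4G2 is shown for its forkhead words, and eIF4A, chosen after its values were seen, for its DREF core.
eIF2Bbeta, X:2703853-2703946: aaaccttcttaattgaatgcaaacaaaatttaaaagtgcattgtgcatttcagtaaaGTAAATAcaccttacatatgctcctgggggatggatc
eIF4EHP, 3R:24109204-24109304: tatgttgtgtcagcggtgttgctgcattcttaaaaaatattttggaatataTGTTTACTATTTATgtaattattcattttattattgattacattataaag
eIF1, 3L:3222961-3223037: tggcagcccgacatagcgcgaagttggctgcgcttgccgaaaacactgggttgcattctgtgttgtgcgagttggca
eIF3d1, 3R:23678713-23678813: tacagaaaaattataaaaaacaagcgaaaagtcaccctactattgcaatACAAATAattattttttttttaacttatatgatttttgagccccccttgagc
eIF3a, 3R:4433896-4433964: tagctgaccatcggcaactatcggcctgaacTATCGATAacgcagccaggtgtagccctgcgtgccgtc
eIF3h, 2L:5052429-5052529: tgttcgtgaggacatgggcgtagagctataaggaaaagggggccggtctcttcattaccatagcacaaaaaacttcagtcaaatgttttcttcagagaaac
eIF4G2, 3R:23817980-23818080: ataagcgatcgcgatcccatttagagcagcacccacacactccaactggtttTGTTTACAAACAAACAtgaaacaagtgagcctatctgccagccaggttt
eIF4A, 2L:5981690-5981763: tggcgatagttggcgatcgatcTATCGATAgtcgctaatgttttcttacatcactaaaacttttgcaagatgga

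The forkhead word RTAAAYA lay within 50 bp of 5 of the 14 summits (35.7%), against 29.9% of all 2919 IDR summits. The 5 were the peak of rank 2 beside eIF2Bbeta, that of eIF6, the stronger one of eIF4EHP, and those of eIF2Bgamma and eIF4G2. The stricter word GTAAACA lay at 3 of them, those of eIF4EHP, eIF2Bgamma and eIF4G2, or 21.4% against 8.12% of all IDR summits. The related word AYAAAYA lay at 4 of the 14 (28.6%), against 30.5% of all IDR summits. The capitals in the eIF4EHP sequence hold a GTAAACA and an ATAAATA, both read on the other strand and both forms of RTAAAYA. In the eIF4G2 sequence the GTAAACA, read on the other strand, runs into ACAAACA words that overlap each other. Of the 8 summits within 500 bp of a TSS of the initiation factor gene, 2 had RTAAAYA (25.0%, against 29.9% of all IDR summits), those of eIF6 and eIF4EHP.

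The DREF core TATCGAT lay within 50 bp of 3 of the 14 summits (21.4%), those of eIF3a and eIF2Bgamma and the stronger one of eIF4A, against 1.95% of all IDR summits. Each match also holds the BEAF-32 word CGATA on 1 strand, so the counts overlap. CGATA lay at 4 summits (28.6%), against 13.7% of all IDR summits. A larger share of these summits lay near a TSS, as given above, and whether that bears on either count was not tested. GAGAG, the GAGA factor word, lay at 2 summits (14.3%), against 15.1% of all IDR summits. Neither CACGTG nor WGATAA was found at any of the 14, against 1.27% and 16.4% of all IDR summits.

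Over the stretch from 250 bp before to 50 bp after the most upstream TSS, TATCGAT was found in 21 of the 44 genes (47.7%), against 18.2% of the 13945 promoters of that length. Of the 11 genes with an IDR summit, 6 had it: eIF1, eIF2Bbeta, eIF3a, eIF4A, eIF4G2 and eIF6. The rest of the 21 were genes without an IDR summit. CGATA was found in 27 of the 44 (61.4%), against 47.4% of all promoters. RTAAAYA was found in 26 of the 44 (59.1%), against 46.2%, and AYAAAYA in 24 (54.5%), against 48.0%. GTAAACA was about as frequent in both, at 4 of the 44 (9.09%) against 9.19%. GAGAG was found in 7 of the 44 (15.9%), against 29.7%. WGATAA, found in 14 (31.8%), was near its share of 36.1% over all promoters. CACGTG was found in 3 (6.82%), against 4.2%. A match is a description of the letters and not of a bound site.

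Among the genes of start codon choice and subunit joining, eIF6 had the strongest peak. eIF6 is a factor of the large subunit that keeps the subunits apart until joining. Its peak at 2R:23850290-23850537, IDR rank 99 with a signal of 926, had its summit 103 bp upstream of the eIF6 TSS, within ytr and an antisense RNA gene. Its signal was 320.0 in replicate 1, 305 in replicate 2 and 267 in replicate 3, with ranks 144, 71 and 140. It stood among the 144 strongest peaks of each replicate, and its summit in each replicate lay at most 11 bp from that of the IDR list.

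eIF1, which guards the choice of the start codon, carried a peak at 3L:3222905-3223125, rank 333 with a signal of 575. The summit lay 354 bp upstream of the eIF1 TSS and 27 bp upstream of that of RpL28, a ribosomal protein gene on the other strand. The signal was 222 in replicate 1, 173 in replicate 2 and 215 in replicate 3, with ranks 381, 319 and 239. Neither forkhead word was in its window.

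eIF5B, the GTPase of subunit joining, is a gene of 32320 bp and carried an IDR summit near each end. The stronger, at 3L:3432678-3433081 with rank 2141, lay in an intron 27723 bp downstream of the eIF5B TSS, and the nearest protein-coding TSS was that of sty (sprouty, an inhibitor of receptor tyrosine kinase signalling), 7945 bp away. It was the only 1 of the 14 summits in no other gene's window, with ranks 2436, 2241 and 2389 in replicates 1, 2 and 3. The other, at 3L:3460476-3460879 with rank 2853, lay 75 bp upstream of a TSS of eIF5B. It was the only 1 of the 14 outside the leading peaks of every replicate, with ranks 3547, 3127 and 7123. eIF1A and eIF5 had no IDR peak, and eIF5 had no summit in the pooled relaxed list either.

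None of the genes of eIF2 or of the alternative tRNA carriers eIF2A and eIF2D carried an IDR summit. The strongest pooled peak of eIF2beta ranked 3435, 274 bp upstream of its TSS, with ranks 2673 in replicate 1, 2066 in replicate 2 and 19848 in replicate 3. It was a leading peak in replicates 1 and 2 and far down the list in replicate 3. The strongest pooled peak of eIF2A ranked 4004, 27 bp downstream of its TSS, and was a leading peak in replicate 2 alone, at rank 2785. That of eIF2D ranked 7600. eIF2alpha, the subunit whose phosphorylation shuts down initiation under stress, had no summit in any of the lists, and eIF2gamma had none in the pooled list.

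The eIF2B genes held the strongest peak of the 44. It lay at X:2703701-2704070, rank 2 of the IDR list with a signal of 2702. The summit was 675 bp upstream of the TSS of eIF2Bbeta, a regulatory subunit, and 44 bp upstream of that of Ugalt, a transporter of UDP-galactose on the other strand. The signal was 1051 in replicate 1, 898 in replicate 2 and 766 in replicate 3, with ranks 2, 1 and 5. It was among the 5 strongest peaks of every replicate, and with the nearest TSS it counts for Ugalt and not for eIF2Bbeta.

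The peak counted for eIF2Bgamma, a catalytic subunit, lay at 2R:15541146-15541549, rank 2076, 1313 bp upstream of its TSS and 15 bp downstream of that of CG8187. Vha36-1, a gene of the vacuolar proton pump, held the same summit. Its ranks were 5311 in replicate 1, 1256 in replicate 2 and 2561 in replicate 3, so replicate 1 did not have it among its leading peaks. eIF2Balpha had no IDR peak, and its strongest pooled peak, 60 bp upstream of its TSS and 30 bp upstream of that of Vps13B, ranked 6028. It was a leading peak in replicate 2 alone, at rank 1476, against rank 12915 in replicate 1 and no overlapping peak in replicate 3. The strongest pooled peaks of eIF2Bdelta and eIF2Bepsilon ranked 4812 and 13794.

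Of the 16 eIF3 genes, eIF3a, eIF3d1 and eIF3h carried an IDR summit. eIF3a, the large core subunit, had its peak at 3R:4433713-4434116, rank 1158 with a signal of 313, 20 bp upstream of its TSS, in a promoter shared with CG1074 on the other strand. The signal was 116 in replicate 1, 103 in replicate 2 and 94.7 in replicate 3, with ranks 1485, 923 and 1398. eIF3h had a peak at 2L:5052277-5052680, rank 1187, in an intron 301 bp downstream of a TSS, with ranks 1301, 803 and 2815 in replicates 1, 2 and 3. In replicate 3 its summit stood 245 bp from that of the IDR list. The IDR summit also lay within 500 bp of a TSS of senju, on the other strand.

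The peak counted for eIF3d1 lay at 3R:23678561-23678964, rank 704 with a signal of 406, 1276 bp upstream of its TSS. It was 132 bp upstream of the TSS of GILT2, a gene related to lysosomal thiol reductases. The signal was 177 in replicate 1, 124 in replicate 2 and 108 in replicate 3, with ranks 656, 625 and 1076. Its paralogue eIF3d2 had no summit in the IDR or pooled list and 1 relaxed summit in replicate 1, at rank 27242.

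The other 13 eIF3 genes had no leading peak in any replicate. Of these, eIF3c came nearest to the IDR list, with a pooled rank of 4206 and a summit 172 bp downstream of a TSS. Next came eIF3l at 4424, with the summit nearer to the TSS of Nrx-IV, then eIF3j at 5365, eIF3e at 6094 and eIF3f1 at 7052. The paralogue eIF3f2 ranked 10666. eIF3g1 and eIF3g2 had no pooled summit, and eIF3g2 had none in any replicate. The weakest peak of the IDR list had a signal of 190.0, against 174 for the strongest pooled peak of eIF2beta, the first of the 44 genes outside the list.

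Among the eIF4 genes, eIF4EHP carried 2 IDR summits. It encodes a relative of eIF4E that binds the cap and represses translation, and its span of 45884 bp is the longest of the 44. The stronger peak, at 3R:24109172-24109329 with rank 304 and a signal of 599.5, lay 294 bp upstream of the eIF4EHP TSS and 82 bp upstream of that of CG18428 on the other strand. The signal was 347 in replicate 1, 63.4 in replicate 2 and 187 in replicate 3, with ranks 114, 2528 and 333. Replicate 2 was far below the others in rank, and its summit was shifted by 76 bp. The weaker peak, at 3R:24105309-24105712 with rank 2483, lay 252 bp downstream of the TSS of Syx1A (syntaxin, a protein of vesicle fusion), a gene within the span of eIF4EHP.

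eIF4A, the helicase, had summits at 2 of its TSSs. The stronger, at 2L:5981538-5981941 with rank 2193 and a signal of 222, lay 24 bp upstream of the first TSS. The weaker, at 2L:5982300-5982703 with rank 2802, lay 92 bp upstream of another, within a 5′ untranslated exon. The stronger peak ranked 4277 in replicate 1, 2708 in replicate 2 and 2460 in replicate 3, and the weaker 10827, 1539 and 1433. Both were leading peaks in replicates 2 and 3 and not in replicate 1. In replicate 2 the strongest peak of the window was another, of rank 717, upstream of the gene at -1633 bp from its nearest TSS.

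eIF4G2, a paralogue of the scaffold known for its role in male germ cells, had a peak at 3R:23817828-23818231, rank 2143 with a signal of 225. The summit lay in an intron 789 bp downstream of a TSS that the annotation also gives to CG33111. Its ranks were 1903, 2234 and 3577 in replicates 1, 2 and 3, so replicate 3 did not have it among its leading peaks. The more general scaffold gene eIF4G1, the only one of the 44 on chromosome 4, had no summit in any list.

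None of the 6 genes named eIF4E with a number had an IDR peak. The strongest pooled peak of eIF4E1 ranked 11067 and lay 550 bp downstream of a TSS, and that of eIF4E6 ranked 22423. eIF4E3, eIF4E4, eIF4E5 and eIF4E7 had no pooled summit. eIF4B, eIF4H1 and eIF4H2 had no pooled summit either, and eIF4B and eIF4H1 had none in any replicate.

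**Figure D2:**
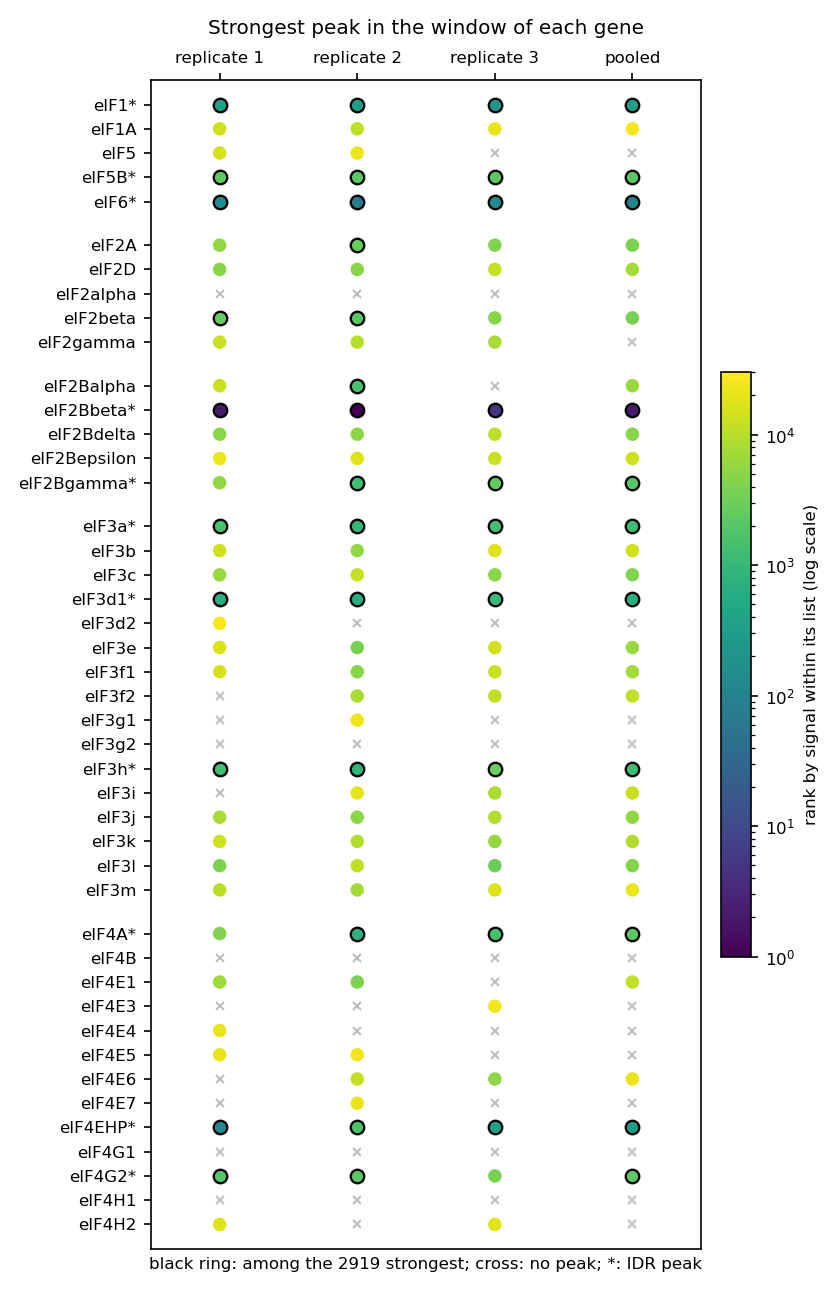
Rank by signal (colour, log scale) of the strongest peak in the window of each of the 44 genes in replicates 1 to 3 and in the pooled relaxed list. Genes run by role from top to bottom. A black ring marks one of the 2919 strongest peaks of that list, a cross no peak, and an asterisk a gene with an IDR summit. Rings in all 3 replicates mark 8 genes, and 5 genes have crosses throughout.

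Across replicates, a leading peak lay in the window of 10 of the 44 genes in replicate 1 (22.7%, against 16.9% of all genes). It did so for 14 in replicate 2 (31.8%, against 17.2%) and for 10 in replicate 3 (22.7%, against 16.2%). The mean was 25.8% ± 5.25 for the initiation factor genes and 16.8% ± 0.483 for all protein-coding genes (SD, n = 3 each). All 3 replicates had one for 8 genes (18.2%, Wilson interval 9.51 to 32.0), against 11.2% of all genes: eIF1, eIF5B, eIF6, eIF2Bbeta, eIF3a, eIF3d1, eIF3h and eIF4EHP. For eIF4A, eIF5B and eIF4EHP the strongest peak of the window was not at the same place in each replicate. A further 4 genes had a leading peak in 2 replicates, 2 had it in replicate 2 alone and 30 in none. Of the 14 IDR peaks, 8 overlapped a leading peak of all 3 replicates (57.1%), against 57.8% of all IDR peaks, and 5 overlapped one in 2.

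The peaks were also set beside those of all genes by rank. Among the 11 genes with an IDR summit, the median rank of the strongest was 1158, against 1226 over the 2362 genes with one. Over all 14 summits the order was the other way, with a median rank of 1631.5 against 1460 for all IDR peaks, and a median signal of 269 against 276. In the pooled relaxed list, 30 of the 44 genes had a summit (68.2%), against 68.5% of all genes. The median rank of the strongest was 4618 in the initiation factor genes and 8267 over the 9550 genes with one. The median gene length was 1968 bp for the 44 genes and 2166 bp over all genes. Among genes under 5000 bp, 8 of 36 initiation factor genes (22.2%, Wilson interval 11.7 to 38.1) carried an IDR summit, against 10.7% of all such genes. Among genes with a pooled relaxed summit within 500 bp of a TSS, 10 of 27 did (37.0%, Wilson interval 21.5 to 55.8), against 32.4% of all such genes. Both of these restrictions were chosen after the values were seen.

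**Figure D3:**
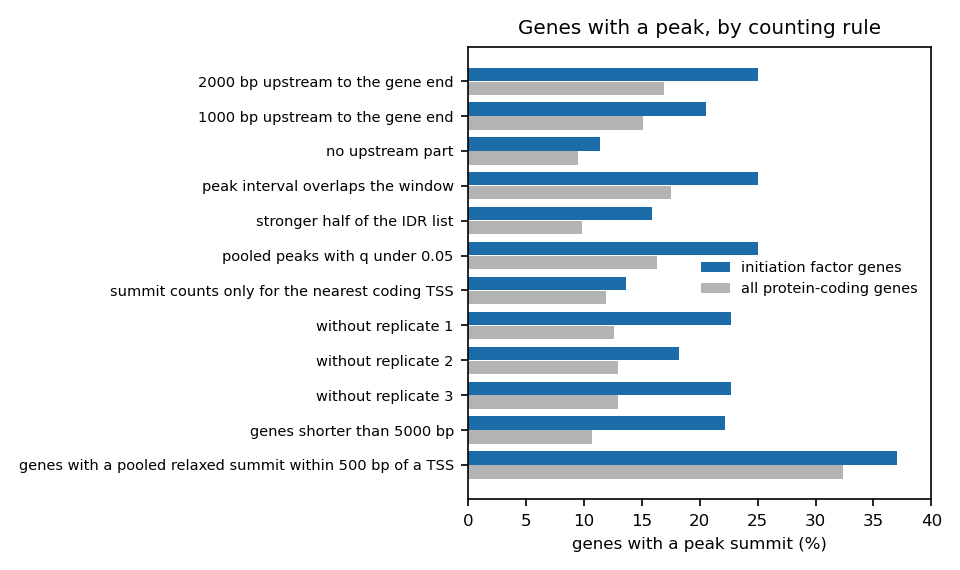
Percent of initiation factor genes (blue, above) and of all protein-coding genes (grey, below) with a peak summit under each way of counting. The share of initiation factor genes was higher under each rule shown, and the shares were 13.6% and 11.9% where a summit counted only for the nearest protein-coding TSS.

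Other genes of translation were taken from a list of 30. The median length of these genes was 5666.5 bp, against 2166 bp over all protein-coding genes, so their windows were mostly longer. Among those under 5000 bp, 5 of 14 carried an IDR summit, against 1120 of 10461 such genes in all (10.7%). How far length bears on the counts was not tested. Of the 30 genes, 9 carried an IDR summit, against 2362 of the 13945 protein-coding genes (16.9%). They were 4 of 7 elongation factor genes, none of 6 genes of release, recycling and re-initiation, 1 of 2 genes of poly(A) binding, 3 of 7 kinases and repressors that act on initiation, and 1 of 8 genes of the TOR pathway. eEF1gamma had its strongest peak at its TSS, with rank 93. eEF2 had one 34 bp and eEF5 one 23 bp downstream of a TSS, with ranks 967 and 1335. The strongest peak of eEF1alpha1, rank 224, lay 1198 bp upstream of its own TSS and 1042 bp downstream of that of ERp60, the nearest.

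Of the regulators that meet the factors above, Lk6, the kinase of eIF4E, had its strongest peak at rank 17, 976 bp upstream of a TSS. Thor, the eIF4E-binding repressor, had one of rank 1059, 22 bp upstream of its TSS. Gcn2, a kinase of eIF2alpha, had one of rank 370, 259 bp upstream of a TSS and 97 bp upstream of that of Ugt35D1, while PEK, another kinase of eIF2alpha, had none. The others of that group of 7, mxt, cup and crc, had no IDR peak either, although cup had a leading peak in all 3 replicates. The genes of the targets themselves, eIF4E1 and eIF2alpha, also had no IDR peak. pAbp, the poly(A) binding protein that bridges to eIF4G, had a peak of rank 1788, 505 bp downstream of a TSS. Akt, a kinase upstream of TOR, had 3 IDR summits, the strongest of rank 1476 and nearer to a TSS of Mhcl.

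Against the gene sets of the ribosome itself, the initiation factors stood between in leading and IDR peaks. Leading peaks lay at 25.8% ± 5.25 of the initiation factor genes, at 66.3% ± 2.88 of 92 cytosolic ribosomal protein genes and at 12.8% ± 3.16 of 73 mitochondrial ribosomal protein genes (SD, n = 3 each). In every replicate the initiation factor share lay below that of the cytosolic and above that of the mitochondrial ribosomal protein genes. The lowest initiation factor value was 22.7% (Wilson interval 12.8 to 37.0), and the highest mitochondrial one, 16.4%, lay inside that interval. The SD is over replicates of the same genes and does not measure the counting error of a share. In the IDR list the shares were 25.0%, 70.7% and 15.1%. The Wilson interval of the first, 14.6 to 39.4, holds the mitochondrial share. In the pooled relaxed list the order was another, since 68.2% of the initiation factor genes had a summit, against 91.3% of the cytosolic and 78.1% of the mitochondrial ribosomal protein genes. The peak beside eIF1 is also 1 of those counted for RpL28. These differences were not tested, since the replicates share a strain and an input and the sets differ in gene length, with medians of 1968 bp, 1326 bp and 909 bp.

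**Figure D4:**
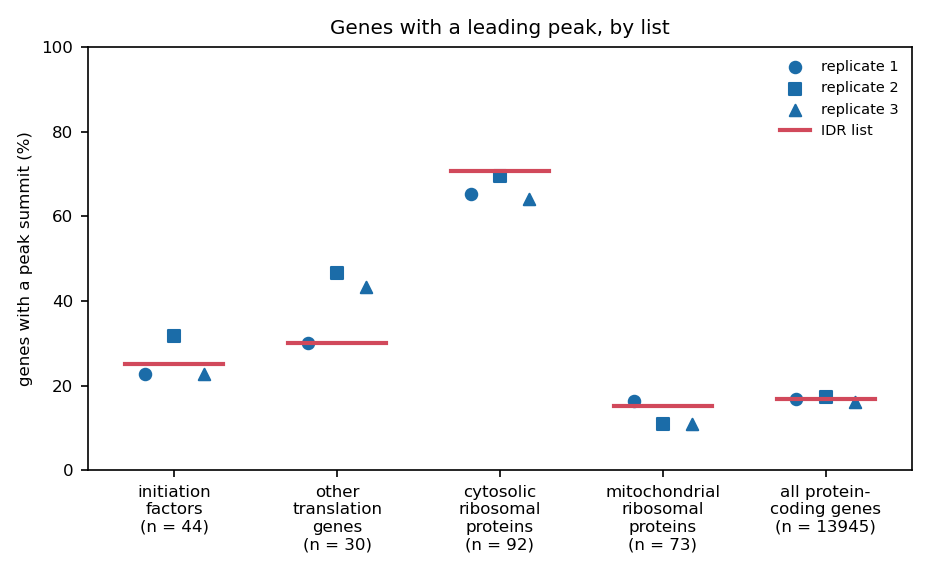
Percent of the genes of each list with a leading peak in replicates 1 to 3 (circle, square, triangle) and with an IDR summit (red line). The initiation factors lie at 22.7%, 31.8% and 22.7% in replicates 1 to 3, below the cytosolic ribosomal protein genes and above the mitochondrial ones in each.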

How the data were processed

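Peak lists in narrowPeak format on dm6 were used as deposited. Per the deposited file descriptions, relaxed peaks were called for each replicate and for the pool against 1 input alignment, and reproducible pooled peaks formed the IDR list. How reads were aligned and peaks called, and which IDR limit was set, is not given in the sources used here. Per the labels, chromatin was sonicated to 200 to 800 bp. Ranks within a list used the deposited signal per peak. Counts of peaks with q under 0.05 used the −log10 q-value as deposited, and the deposited summit offset, another column of the authors, gave the summit. The shared input and fixed list length mean that numbers of relaxed peaks say nothing of enrichment.

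Gene models were those of Ensembl release 115 and sequence that of the NCBI release 6 assembly, on 6 arms. Gene windows, nearest TSSs (ties counted for each gene) and words on both strands were computed with pandas 2.3.3, NumPy 2.4.6 and SciPy 1.17.1 under Python 3.11.15, with figures by matplotlib 3.10.9, and the window and word code was tested on simulated data. Overlap means at least 1 bp. With 1 group no test between samples exists, and replicates of 1 strain measure spread that may be technical. Genes named are all with an IDR summit, up to 10 of the next by pooled rank, their paralogues and some, not all, of the genes sharing a summit. Others named were chosen after their values were seen. The members and lists were chosen with earlier results of these data known. Alternatives are in the closing section.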

Additional observations from a re-analysis of the deposited data

How the results depend on the processing

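The 5 counts were recomputed under 40 alternatives, of which 31 left the count within 1.5 times its value. The 11 genes with an IDR summit became 5 with no upstream part (11.4%, against 9.5% of all genes), 7 with the 1459 strongest IDR peaks (15.9%, against 9.82%) and 6 when a summit counted only for the nearest protein-coding TSS (13.6%, against 11.9%). The 7 genes with a summit within 500 bp of a TSS became 4 within 250 bp (9.09%, against 7.24%). The 8 genes with a leading peak in all 3 replicates became 4 with 1459 leading peaks (9.09%, against 6.97%). The share over all genes fell under each of these settings as well. For IDR summits the main shares were 25.0% and 16.9%. Those lay further apart than the shares with no upstream part or with the nearest TSS only. The 5 summits with a forkhead word became 8 within 100 bp (57.1%, against 44.6% of all IDR summits) and 3 with GTAAACA (21.4%, against 8.12%). Among the 8 summits near a TSS of the gene itself they became 2 (25.0%), below the 29.9% of all IDR summits. Each of these settings counts fewer or more positions, peaks or words, and why the counts moved was not tested. Leaving out each replicate in turn counted genes with a leading peak in both others, and the IDR list was not remade. It gave 8 to 10 genes with a peak (18.2% to 22.7%, against 12.6% to 12.9% of all genes). For peaks within 500 bp of a TSS it gave 5 to 6 genes (11.4% to 13.6%, against 6.21% to 6.52%). The count of genes with leading peaks was the same calculation, so these settings enter the 40 alternatives more than once. That count could not fall below 8 when a replicate was dropped. There were 3 to 4 summits with a forkhead word and 9 to 10 other translation genes. The forkhead count was 3, of the 8 summits then left, without replicate 2. The 9 other translation genes became 7 to 10 over their alternatives. No paired analysis was possible because there is 1 group. Read depth is unknown, and with 44 genes and 14 summits a change of 1 or 2 items moves a share by several percent.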
